A study of Mus with 30 samples.

Results

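The hearts of mice that received valsartan during an angiotensin II (Ang II) infusion were compared with the hearts of mice that received saline. The AngII+VAL group holds 5 of the 30 mice of the series and the Control group another 5, and membership followed the group label of each mouse. AngII+VAL mice were infused with Ang II at 500 ng/kg/min for 28 days and treated with valsartan at 10.4 mg/kg per day. Control mice had saline as the infusion and saline as the treatment over the same 28 days. All mice were C57BL/6 with no engineered allele. The study's paper describes its mice as young adult males, and it does not describe a valsartan group. Cardiac tissue of each mouse gave 1 RNA library, made after ribosomal RNA had been removed. The other groups were AngII+GAS, AngII+BAI, AngII+ETH and AngII, with 5 mice each, and their values are given below only for the transcripts that the comparison of valsartan with saline turns on. AngII+VAL and Control mice differ in 2 agents, Ang II and valsartan, so a difference between them cannot be assigned to either agent.

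Ang II is the effector peptide of the renin-angiotensin system. It constricts blood vessels, raises blood pressure and, given as a long infusion, enlarges and scars the heart of mice, and most of these actions pass through the type 1 angiotensin receptor. Valsartan blocks that receptor and is used against high blood pressure and heart failure. The comparison therefore asks how far the transcript levels of hearts under Ang II and a receptor blocker stood from those of hearts that saw neither.

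Levels were read as FPKM, that is, fragments scaled by the length of the transcript and by the size of the library. Each row of a mouse's table is a transcript, named either by an Ensembl mouse transcript identifier or by a merged model, which is a transcript assembled from the reads that carries a locus number and a model number. None of the 36503 identifiers could be paired with a gene, so neither gene groups nor heart cell markers could be followed, and transcripts are described by identifier, abundance and behaviour across mice. In total 29529 transcripts were listed in all 10 tables, and 18594 of them reached 1 FPKM in at least 5 of the 10 mice and were tested. Of these, 14373 were Ensembl transcripts and 4221 were merged models. Differences are AngII+VAL minus Control on the log2(FPKM + 1) scale, which understates changes of low transcripts, and were tested with limma.

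The libraries of both groups had like totals. The FPKM of a table summed to 586384 to 652311 in AngII+VAL mice and to 585451 to 654188 in Control mice, and 17265 to 19280 transcripts stood at 1 FPKM or more in AngII+VAL mice against 16914 to 19799 in Control mice. The number of reads behind a library is unknown. The 10 most abundant transcripts of each mouse, which need not be the same in all mice, took 58.7% ± 3.65 of the summed FPKM in AngII+VAL mice. In Control mice they took 56.5% ± 3.37 (SD, n = 5 each). Pairwise correlations of log2 levels across transcripts ran from 0.809 to 0.843 over all 45 pairs of mice, with a mean of 0.835 within AngII+VAL, 0.828 between the groups and 0.823 within Control. None of 5 library measures passed an exact permutation test over mice between the groups (two-sided, adjusted p between 0.556 and 0.73, where the smallest p that 5 against 5 mice allow is 0.00794). Control mice 5155 and 5153 stood apart from the other 8 mice. Their mean correlation with the other 9 mice was 0.818 and 0.822 against 0.826 to 0.834 in the rest, and on the first principal component, which held 13.9% of the variance, they lay at 73.4 and 41.7 while no other mouse lay above 0. Counts that rest on these 2 mice are therefore also given without them.

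**Figure D1:**
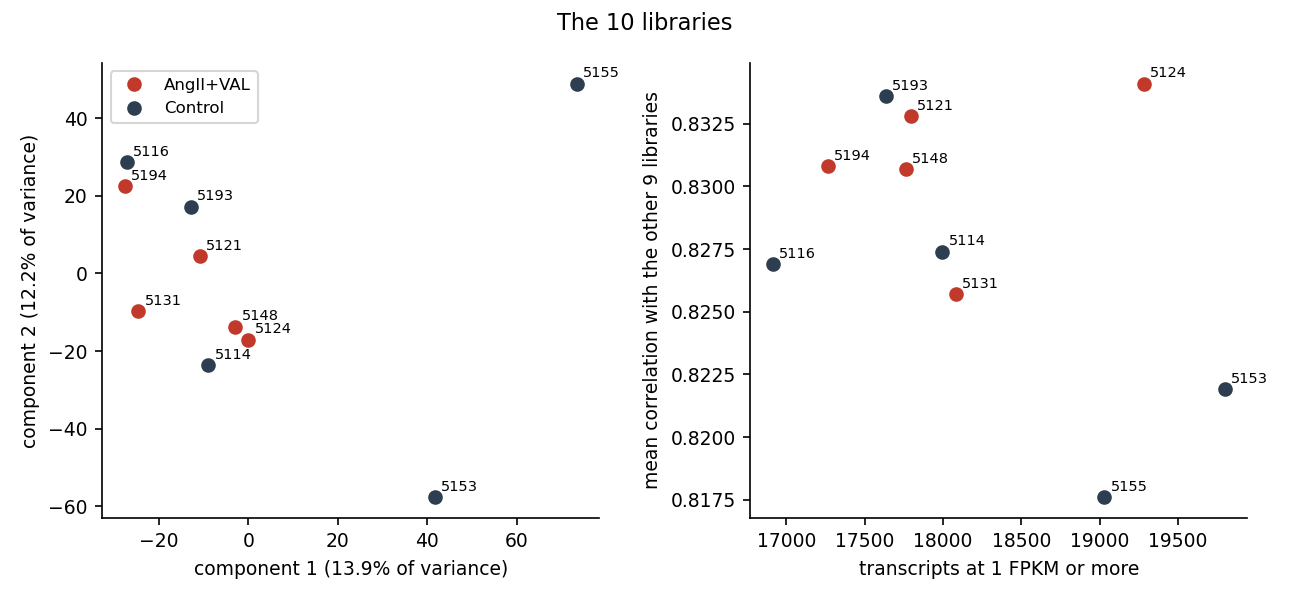
Libraries of AngII+VAL and Control mice, with the groups told apart by colour. One panel shows the first and second principal components. The other shows the mean correlation with the other 9 mice against the number of transcripts at 1 FPKM or more. Control mice 5155 and 5153 have the lowest mean correlation with the other 9 mice (0.818 and 0.822) and the only positive positions on the first principal component (73.4 and 41.7).

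Few transcripts passed the test between hearts under Ang II with valsartan and saline hearts. After Benjamini-Hochberg adjustment in limma, 2 transcripts rose in AngII+VAL mice (0.0108% of those tested) and 0 fell (0%). The number that rose was 7 without Control mouse 5114 and 1 without AngII+VAL mouse 5124 or Control mouse 5155. The number that fell was 3 without AngII+VAL mouse 5124 or 5194, and 1 without AngII+VAL mouse 5148 or 5121 or Control mouse 5114, 5116 or 5153. Without adjustment, 430 transcripts were higher in AngII+VAL mice at p under 0.05 (2.31%) and 615 were lower (3.31%). These 1045 transcripts made up 5.62% of those tested, where 929.7 would pass if nothing differed. With a fold change of at least 2 on the log2(FPKM + 1) scale added to p under 0.05, 130 transcripts were higher (0.699%) and 136 lower (0.731%), or 1.43% in both directions together. The 2 groups did not overlap in 90 transcripts that were higher (0.484%) and 121 that were lower (0.651%), or 1.13% together. The median log2 difference over all tested transcripts was -0.02.

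The balance of higher and lower transcripts changed with the scaling and with single mice. Of the transcripts at p under 0.05, 41.1% were higher in AngII+VAL mice, and that share was 50.6% after quantile normalization and 48.3% after upper quartile scaling. Without Control mouse 5155 it was 53.4%, without Control mouse 5153 it was 55.0%, and without both it was 69.0%, with 689 transcripts higher and 309 lower. Without AngII+VAL mouse 5124 it was 30.5%, and without Control mouse 5116 it was 34.5%. No direction of change over the whole set of transcripts can therefore be read from these 10 mice.

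AngII hearts, infused with the same dose of Ang II and given no valsartan, were compared with the same Control mice by the same test. Of 18354 transcripts tested, 1 rose (0.00545%) and 6 fell (0.0327%) after adjustment, or 0.0381% together, and 846 were higher (4.61%) and 830 lower (4.52%) at p under 0.05, or 9.13% together. At fold change 2 and p under 0.05, 146 transcripts were higher (0.795%) and 169 lower (0.921%), or 1.72% together. The groups did not overlap in 207 higher (1.13%) and 207 lower (1.13%) transcripts, or 2.26% together. Both comparisons use the 5 Control mice, so their counts are not independent, and the difference between them was not tested.

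Both transcripts that rose were listed at 0 in every saline heart. They met the filter of 1 FPKM in at least 5 mice through the 5 AngII+VAL mice alone, and their standard errors rest on a spread of 0 among Control mice. The transcript ENSMUST00000097856 had 2.13, 1.47, 2.39, 2.15 and 1.996 FPKM in AngII+VAL mice 5131, 5148, 5121, 5124 and 5194, and it was listed at 0 in all 5 Control mice. The log2 difference was 1.59 ± 0.12 (SE, n = 5 each, limma adjusted p = 0.00177). Since no Control mouse gave a value above 0, no fold change is given. The call was lost with all 6 groups in 1 fit (adjusted p = 0.313) and with a pseudocount of 0.1 (adjusted p = 0.127). With every Control mouse at 0, the filter admitted the transcript only if all 5 AngII+VAL mice reached 1 FPKM. That the groups did not overlap was therefore given by the filter. In AngII mice without valsartan the transcript had 1.33, 0, 1.79, 2.34 and 0.521 FPKM, so 4 of those 5 mice had it as well. Over the 20 mice that had Ang II and another or no treatment, 12 had it above 0.

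The other transcript that rose was a merged model, MERGE.2736.4. It had 4.27, 1.95, 1.73, 3.44 and 1.92 FPKM in AngII+VAL mice in the same order and was listed at 0 in all 5 Control mice. The log2 difference was 1.82 ± 0.19 (SE, n = 5 each, limma adjusted p = 0.0295). In AngII mice it was listed at 0 in 4 mice and at 2.62 FPKM in the other, and of the 20 mice with Ang II and another or no treatment 9 had it above 0. It was not tested in AngII against Control. The call was lost when any 1 of 5 mice was left out: AngII+VAL mouse 5124 (adjusted p = 0.0511) or Control mouse 5155 (0.156), 5116 (0.0583), 5193 (0.0789) or 5153 (0.0524). It was also lost with all 6 groups in 1 fit (adjusted p = 0.400), with a pseudocount of 0.1 (adjusted p = 0.0972) and without Control mice 5155 and 5153 (adjusted p = 0.184).

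The locus of MERGE.2736.4 as a whole did not pass the test. A second model of the locus had 0.359, 2.62, 3.99, 1.95 and 2.78 FPKM in AngII+VAL mice, against 1.63, 7.35, 1.998, 5.98 and 0 FPKM in Control mice 5114, 5155, 5116, 5193 and 5153. Where the AngII+VAL mice had both models, 4 of the 5 Control mice had the second model alone and Control mouse 5153 had neither. With both models summed, the log2 difference of the locus was 0.81 ± 0.50 (SE, n = 5 each, limma adjusted p = 0.895), and the groups overlapped. A further model was listed in the AngII+VAL tables and not in the Control tables, with 1.68 and 2.05 FPKM in mice 5131 and 5124 and 0 in the other 3, and it is left out of that sum.

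**Figure D2:**
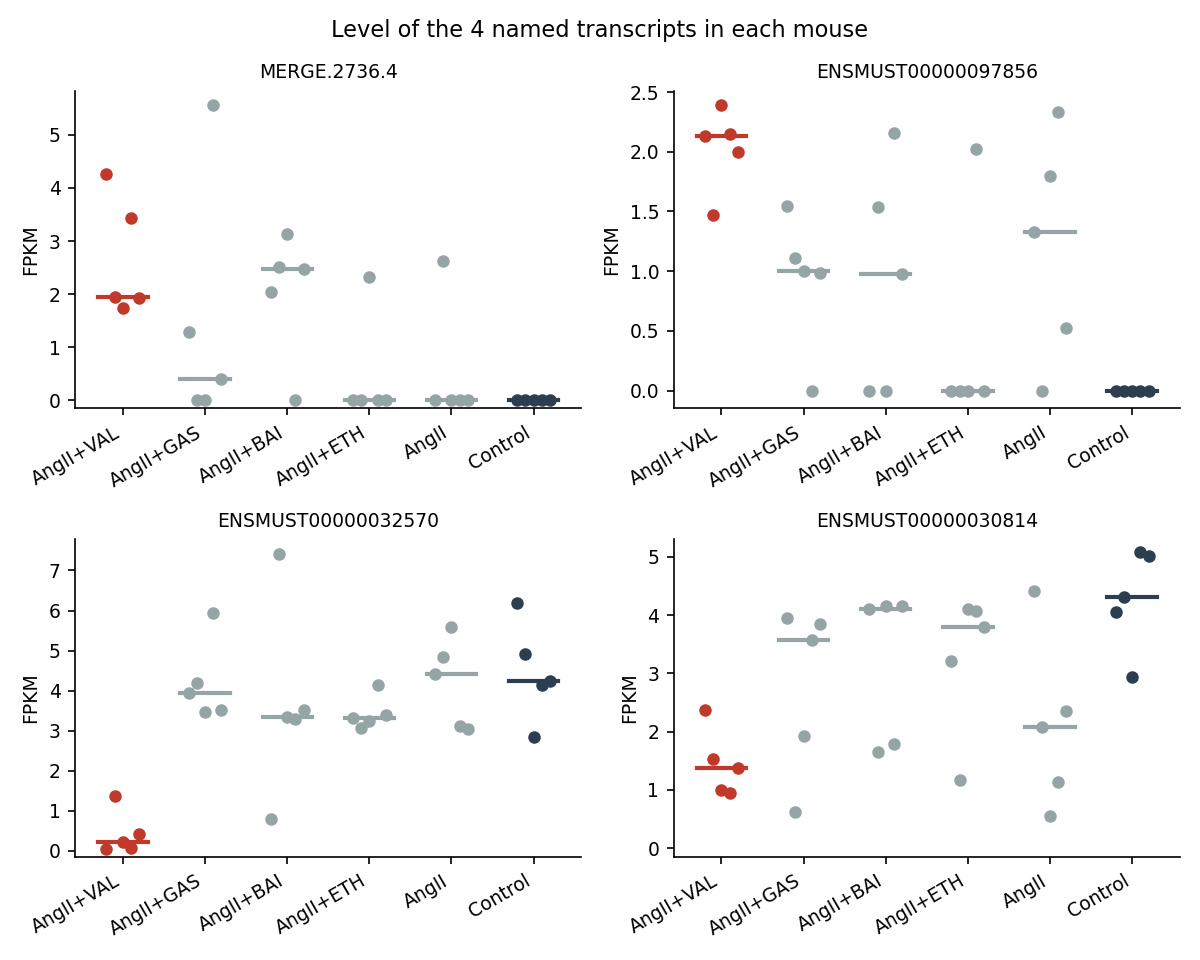
FPKM of 4 named transcripts in each of the 30 mice, by group, with bars at the group medians. Both higher transcripts are listed at 0 in all 5 Control mice, and ENSMUST00000032570 lies between 0.0551 and 1.36 FPKM in AngII+VAL mice and between 2.84 and 6.18 FPKM in Control mice.

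The 2 transcripts named for the lower direction did not pass the adjusted threshold. They were chosen by p among transcripts whose groups do not overlap, so the separation of the groups came with the choice. The transcript ENSMUST00000032570 had 0.0551, 1.36, 0.229, 0.0795 and 0.418 FPKM in AngII+VAL mice 5131, 5148, 5121, 5124 and 5194. In Control mice 5114, 5155, 5116, 5193 and 5153 it had 6.18, 4.92, 2.84, 4.15 and 4.25 FPKM. The highest valsartan mouse, 5148, was below the lowest saline mouse. The group means were 0.429 ± 0.542 FPKM in AngII+VAL mice and 4.47 ± 1.22 FPKM in Control mice (SD, n = 5 each). The log2 difference was -1.98 ± 0.25 (SE, limma adjusted p = 0.0879).

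The low level of ENSMUST00000032570 was seen in valsartan mice and not in mice infused with Ang II alone. AngII mice had 4.42, 4.85, 5.58, 3.12 and 3.04 FPKM, and the log2 difference of AngII minus Control was -0.07 (limma adjusted p = 0.940). Of the 25 mice outside the AngII+VAL group, 24 stood above every valsartan mouse, and the exception was AngII+BAI mouse 5138 at 0.787 FPKM. All Control mice are among the 24, and their place above the valsartan mice came with the choice of this transcript. The difference of AngII+VAL from Control passed the adjusted threshold in 2 of 20 alternatives in limma. These were 1 fit over the 30 mice of all 6 groups (adjusted p = 0.00252) and the fit without AngII+VAL mouse 5148 (adjusted p = 0.0156). That mouse was the highest of the valsartan mice. The difference between AngII+VAL and AngII mice was not tested for this transcript.

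The transcript ENSMUST00000030814 had 2.37, 1.53, 0.994, 0.941 and 1.38 FPKM in AngII+VAL mice, against 4.06, 4.31, 2.94, 5.08 and 5.01 FPKM in Control mice. Its means were 1.44 ± 0.575 and 4.28 ± 0.868 FPKM (SD, n = 5 each) in AngII+VAL and Control mice. The log2 difference was -1.12 ± 0.19 (SE, limma adjusted p = 0.4999). Here AngII mice also spread below the saline mice, with 4.42, 2.09, 0.561, 1.14 and 2.36 FPKM and a log2 difference of AngII minus Control of -0.87 (limma adjusted p = 0.472). Of the 25 mice outside the AngII+VAL group, 16 stood above every valsartan mouse and 2 below. The 16 include all Control mice, which stood above by the choice of this transcript.

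The comparison was most precise for abundant transcripts. The median half-width of the 95% confidence interval was 0.55 on the log2 scale for the 6349 transcripts with a mean under 2 FPKM, 0.57 for 6167 between 2 and 5, 0.43 for 4393 between 5 and 20, 0.30 for 1338 between 20 and 100 and 0.26 for 347 at 100 or more. The share at p under 0.05 in limma was 5.09%, 5.35%, 6.01%, 7.25% and 8.93% over the same classes. For 12321 of the 18594 transcripts (66.3%) the interval lay within 1 of 0 on the log2(FPKM + 1) scale in both directions, and for 78.4% of those at 100 FPKM or more. For low transcripts a difference of 1 on this scale is more than a 2-fold change of the FPKM.

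**Figure D3:**
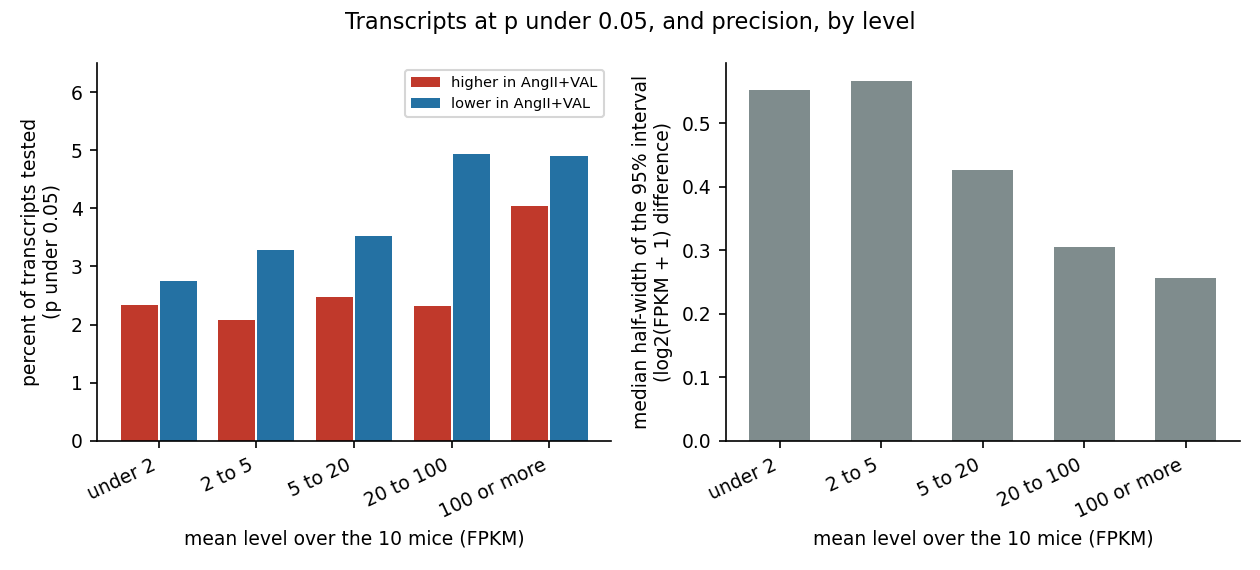
Tested transcripts by mean FPKM over the 10 mice: the share at p under 0.05, higher and lower in AngII+VAL than Control, and the median half-width of the 95% confidence interval on the log2 scale. The share reaches 8.93% at 100 FPKM or more, where the half-width is 0.26.

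The transcripts past fold change 2 were more often listed at 0 in a mouse than tested transcripts as a whole. Of the 130 higher in AngII+VAL mice, 68 (52.3%) were listed at 0 in at least 1 of the 10 mice, and of the 136 lower 42 (30.9%) were, while 2687 (14.5%) of all tested transcripts were. The groups did not overlap in 15 of the 130 and 21 of the 136, against 1.13% of all tested transcripts. A choice by p and fold change favours such separation, so it is no separate result. A mean of at least 5 FPKM was reached by 49 of the 130 and 57 of the 136, and of at least 20 FPKM by 9 and 14. Of all 18594 tested transcripts, 1685 reached 20 FPKM. By level, 0.788% of tested transcripts under 2 FPKM passed fold change 2, 1.78% between 2 and 5 and 1.89% between 5 and 20. Between 20 and 100 FPKM 1.35% passed, and 1.44% at 100 FPKM or more. The most extreme log2 differences at p under 0.05 were 3.86 and -5.67, and both belonged to transcripts with a mean of 100 FPKM or more that were listed at 0 in a mouse. Of the 15907 tested transcripts that were above 0 in every mouse, 0.981% passed fold change 2 and p under 0.05, against 4.09% of the 2687 that were not.

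**Figure D4:**
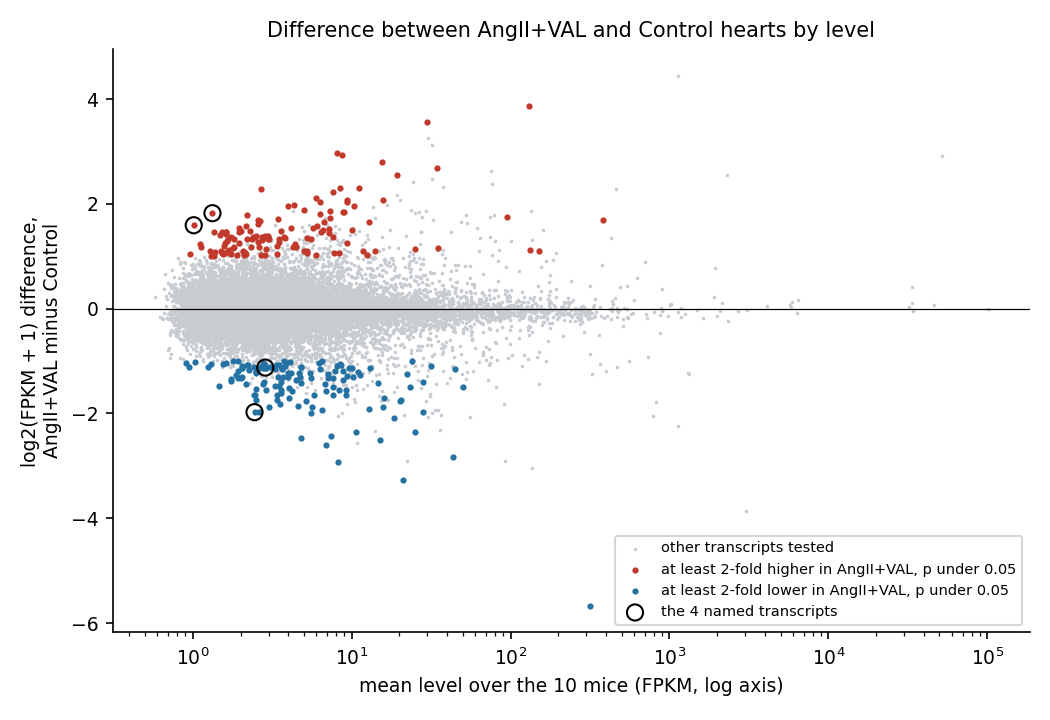
Log2 difference (AngII+VAL minus Control) of each tested transcript against its mean FPKM on a log axis, with transcripts past fold change 2 and p under 0.05 marked. The 130 higher and 136 lower transcripts lie on both sides of 0. Of them, 9 and 14 have a mean of 20 FPKM or more, as do 1685 of the 18594 tested.

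Of the 1685 tested transcripts of at least 20 FPKM, 15 were higher in every AngII+VAL mouse than in every Control mouse and 17 were lower, together 1.9% of them against 1.13% of all tested transcripts. The median log2 difference was 0.59 for the 15, with a range of 0.13 to 1.78, and -0.28 for the 17, with a range of -0.11 to -3.27. None of these passed adjustment, since their lowest limma adjusted p was 0.636. The one with the smallest p had 89.1, 99.0, 86.5, 90.5 and 89.7 FPKM in AngII+VAL mice, against 69.8, 67.5, 73.8, 73.4 and 71.5 FPKM in Control mice. The log2 difference was 0.35 ± 0.06 (SE, n = 5 each, limma adjusted p = 0.636). Tight and separate groups came with the choice of this transcript.

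The most abundant transcripts of the heart stood at like levels under Ang II with valsartan and under saline. Of the 20 with the highest mean, 19 were tested, and 1 of them was at p under 0.05 (the seventeenth, with a log2 difference of -0.23, limma adjusted p = 0.870). The most abundant had 101852, 103657, 117483, 81270.5 and 100610 FPKM in AngII+VAL mice, and 88748, 84482, 99959, 117099 and 117014 FPKM in Control mice. Both groups covered almost the same range, and the log2 difference was -0.0036 with a 95% confidence interval of -0.28 to 0.28. For 16 of the 20, and for 9 of the 10 most abundant, the interval lay within 1 of 0 on the same scale, close to a 2-fold change at these levels.

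A few abundant transcripts had values that single mice carried. The second most abundant lay between 50139 and 61622 FPKM in AngII+VAL mice and between 49686.5 and 63832 FPKM in 4 Control mice, and was at 1.58 FPKM in Control mouse 5153. The fifteenth was at 30404.5 FPKM in Control mouse 5116 and at 10.8 FPKM or less in the other 9 mice. The nineteenth was at 11508 FPKM in AngII+VAL mouse 5131 and at 11042 FPKM in Control mouse 5116, and under 1 FPKM in the other 8. The eighteenth, a merged model, ran from 275 to 6335 FPKM in AngII+VAL mice and from 0.631 to 5284 FPKM in Control mice. In total 4 of the 20 varied more than 10-fold between mice, and in none of the 4 did the groups separate.

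**Figure D5:**
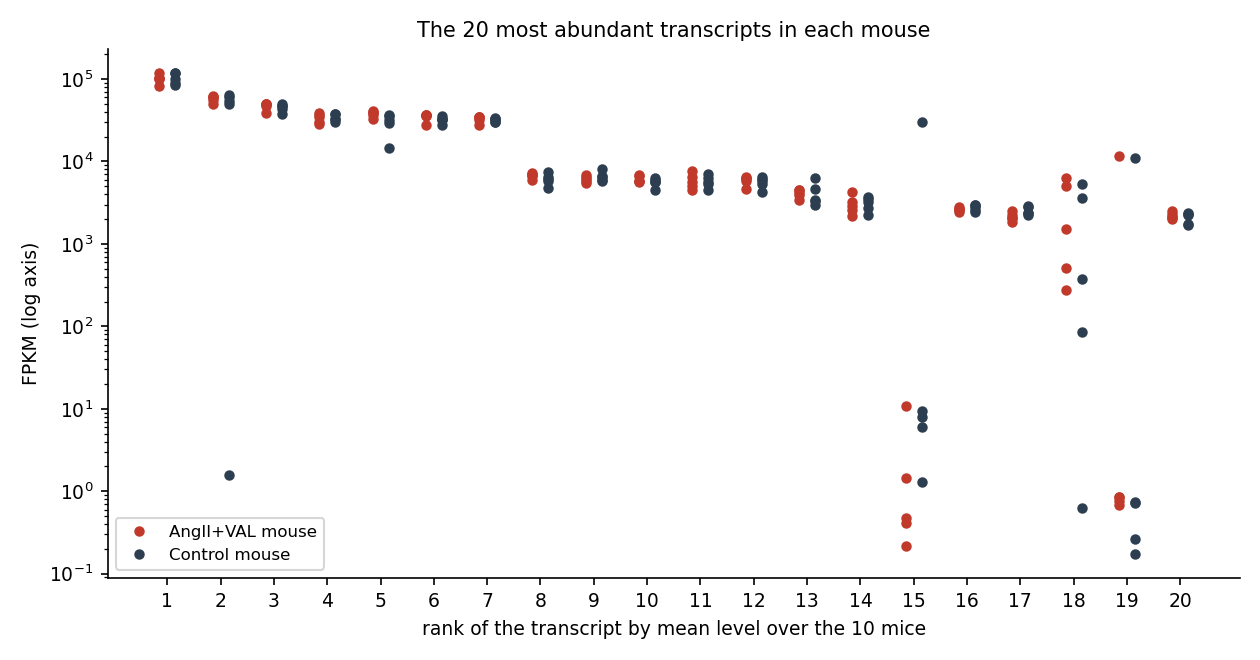
FPKM on a log axis of the 20 most abundant transcripts in each AngII+VAL and Control mouse, ordered by mean. Most have both groups on top of each other, and 4 vary more than 10-fold between mice, such as the second, at 1.58 FPKM in Control mouse 5153 and between 49686.5 and 63832 FPKM in the other Control mice.

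Values of 0 were also found for transcripts that nearly all mice had at high level. Of 3115 transcripts with a median of at least 10 FPKM over the 10 mice, 120 were listed at 0 in at least 1 mouse, 77 in an AngII+VAL mouse and 83 in a Control mouse. Of 659 with a median of at least 50 FPKM, 21 were listed at 0 in a mouse. A single mouse had between 11 such zeros (AngII+VAL mouse 5124) and 36 (Control mouse 5155) among the 3115. Whether a listed 0 was an absent transcript or an estimate that failed was not tested. The 2 transcripts that rose were lower than those counted here, at 4.27 FPKM or less in AngII+VAL mice, and their zeros were not tested either. A pattern of 0 in every mouse of one group was uncommon. Of the 29529 transcripts in all tables, 8 were above 0 in every AngII+VAL mouse and at 0 in every Control mouse, and 2 showed the reverse. The 2 that rose are the only ones of the 8 with at least 1 FPKM in every AngII+VAL mouse, and neither of the 2 reversed ones reached 1 FPKM in every Control mouse. The filter therefore let only the 2 that rose into the test.

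Merged models were less precise than Ensembl transcripts. Their median standard error was 0.33 on the log2 scale against 0.21 for Ensembl transcripts, and 6.63% of merged models and 5.32% of Ensembl transcripts were at p under 0.05 in limma. In the tables of both groups 7314 merged models fell into 4510 loci, 1361 of which held 2 or more models. Of the 2369 tested models in such loci, 162 (6.84%) were at p under 0.05, against 5.62% of all tested transcripts. The sum of their locus was at p under 0.05 in the same direction for 52, differed in the same direction without passing for 84, and differed in the other direction for 26. Summing the models lowered the median standard error of these loci to 0.26, against 0.38 for their single models.

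Transcripts listed for one group alone were mostly near the level below which a table lists none. Every transcript of an AngII+VAL table that the AngII tables also list had a mean of at least 0.5 FPKM in one of these groups, and every transcript of a Control table had a mean of at least 0.5 FPKM in the AngII or Control group. The AngII+VAL tables listed 1582 transcripts that the Control tables did not, with a median mean of 0.627 FPKM, and 15 of these had a mean of at least 5 FPKM. The Control tables listed 2323 that the AngII+VAL tables did not, with a median mean of 0.620 FPKM, and again 15 had a mean of at least 5 FPKM. In the first set 1 transcript was at 1 FPKM or more in all 5 AngII+VAL mice, a merged model with 2.94, 3.29, 1.14, 3.27 and 1.40 FPKM that no other group's tables listed. In the second set 3 were at 1 FPKM or more in all 5 Control mice. These transcripts have no value in the other group and could not be tested.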

How the data were processed

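The authors' tables, 1 per mouse, list transcripts with 1 value each. The deposited values carry no stated unit and were read as FPKM from their range and sums. The processing notes name mm10 and limma, and aligner, assembler, quantifier and annotation are not given in the sources here. No counts could be recovered, so depth is unknown. Transcripts in all 10 tables with at least 1 FPKM in at least 5 mice were tested on log2(FPKM + 1) with limma 3.58.1 in R 4.3.3 (trend, two-sided, Benjamini-Hochberg), tested on simulated data first. The 10 mice of both groups entered the fit. Named transcripts were the 2 higher and 2 lower by identifier whose groups do not overlap and whose higher group averages at least 1 FPKM, those past adjustment first by size of difference, then by p. The 18 gene lists and 11 marker lists, with 394 symbols, had 0 members with a value. The comparison, rule and lists were chosen with earlier results of these data known. Library measures were compared by an exact permutation test. The labels give 1 number per mouse and do not state cages or batches.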

Additional observations from a re-analysis of the deposited data

Results flagged for a closer look

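In 56 groups of 5 mice the highest or lowest mouse was set against the others by Dixon's test, and 8 groups held such a mouse. That count cannot be set against chance, because the groups share mice. The fifteenth and nineteenth most abundant transcripts also owe their rank to 1 or 2 mice, so those mice came with the choice. The transcript ENSMUST00000032570 was at 1.36 FPKM in AngII+VAL mouse 5148 and between 0.0551 and 0.418 FPKM in the other 4. Among the most abundant transcripts, AngII+VAL mouse 5124 was the lowest for the third, at 39064 FPKM against 47508 to 50279.7 FPKM in the other valsartan mice, and for the sixth, at 27872 FPKM against 35721 to 36655 FPKM. For the second, Control mouse 5153 was at 1.58 FPKM and the other Control mice between 49686.5 and 63832 FPKM. For the fifteenth, AngII+VAL mouse 5148 was at 10.8 FPKM with the other valsartan mice between 0.218 and 1.44 FPKM, and Control mouse 5116 was at 30404.5 FPKM with the other Control mice between 1.30 and 9.45 FPKM. For the nineteenth, AngII+VAL mouse 5131 was at 11508 FPKM with the other valsartan mice between 0.672 and 0.862 FPKM, and Control mouse 5116 was at 11042 FPKM with the other Control mice between 0.174 and 0.739 FPKM.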

How the results depend on the processing

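The counts of transcripts at adjusted p under 0.05 were small under each alternative run in limma. They were 0 higher and 1 lower with all 6 groups in 1 fit (629 higher at unadjusted p under 0.05), 0 higher with a pseudocount of 0.1 (400 at unadjusted p under 0.05), 0 higher with a mean of at least 5 FPKM (158 at unadjusted p under 0.05), 1 higher with merged loci summed, 1 higher with Ensembl transcripts alone, and 5 higher and 2 lower without Control mice 5155 and 5153. Leaving out 1 mouse gave 1 to 7 higher and 0 to 3 lower. At fold change 2 and p under 0.05 the pseudocount of 0.1 gave 197 higher and 238 lower, and there were 47 and 57 with a mean of at least 5 FPKM, 79 and 86 with Ensembl transcripts alone, 259 and 311 at fold change 1.5, and 218 higher without the 2 Control mice, and leaving out 1 mouse gave 123 to 162 higher and 112 to 173 lower. At p under 0.05 there were 649 higher without the filter, 158 higher and 243 lower with a mean of at least 5 FPKM, and 689 higher and 309 lower without the 2 Control mice, and leaving out 1 mouse gave 316 to 538 higher and 435 to 736 lower. The cause of these shifts was not tested. Some of the alternatives also changed how many transcripts entered the fit. The alternatives without the 2 Control mice, with array weights and with Ensembl transcripts alone were chosen after seeing the data.

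Each named transcript kept its direction in every alternative that included it. ENSMUST00000097856 lost its call with all 6 groups in 1 fit (adjusted p = 0.313) and with a pseudocount of 0.1 (adjusted p = 0.127), within a range of 0.000789 to 0.313 over 20 alternatives in limma. MERGE.2736.4 passed in 10 of 19 alternatives in limma. It lost its call there too (adjusted p = 0.400 and 0.0972), and also without the 2 Control mice (adjusted p = 0.184). The call was also lost in the fits without a single mouse that are named above. Its adjusted p ranged from 0.0106 to 0.895, and the upper end belongs to the sum of its locus. ENSMUST00000032570 ran from an adjusted p of 0.00252 to 0.599 and passed in 2 of 20 alternatives. ENSMUST00000030814 ran from 0.140 to 0.783.

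Leaving out 1 mouse moved the group difference of the summed FPKM between -1308 and 17290, of the number of transcripts at 1 FPKM or more between -578 and 143, of the number at 0 between -314 and -93.8, of the share in the top 10 between 1.22 and 3.60 percentage points, and of the correlation with the own group between 0.00876 and 0.0163. Without Control mouse 5153 the first 2 changed sign, and the last had an unadjusted exact permutation p of 0.0476 without AngII+VAL mouse 5131 and 0.0317 without Control mouse 5193. No paired analysis was possible because the labels number the mice singly and pair none across groups. The gene list alternatives were not run because no member had a value. The alternative with a mean of at least 5 FPKM holds none of the 4 named transcripts. With depth unknown, low transcripts carry an error that cannot be split into counting error and difference between mice.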

Other observations

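One Ensembl transcript, chosen after its values were seen, was listed for Control and not for AngII+VAL. It had 40.6, 40.7, 1.93, 42.7 and 12.6 FPKM in Control mice 5114, 5155, 5116, 5193 and 5153. In AngII mice it lay between 0 and 0.0427 FPKM. Every transcript listed for Control and not for AngII+VAL had an AngII mean under 0.5 FPKM, so a low AngII mean came with the choice. The chosen transcript stood at 45.7 FPKM in 1 AngII+ETH mouse, 44.2 FPKM in 1 AngII+BAI mouse and 19.8 FPKM in 1 AngII+GAS mouse. In the other mice of those groups it was at 0.125 FPKM or less. The transcript of the highest mean among those listed for AngII+VAL and not for Control rested on 2 mice, at 364 and 327 FPKM in AngII+VAL mice 5148 and 5194 and at 0.571 FPKM or less in the other 3. The transcript of the highest mean in the reverse set rested on 1 mouse, at 2421 FPKM in Control mouse 5114 and at 0 in the other 4.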
